A study of Mus musculus with 9 samples.

Results

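Expression of 10 genes that mark the endothelium of the liver sinusoids, and its change toward an ordinary capillary lining, was followed through 9 libraries of rat liver RNA. These genes were taken by name from the deposited table. Stab1, Stab2, Lyve1, Clec4g and Fcgr2b were read as sinusoidal scavenger and lectin receptors, and Oit3, which encodes a secreted protein, was grouped with them. Kdr and Pecam1 were read as general endothelial receptors, and Vwf and Cd34 as markers of continuous capillaries. All 10 were found among 37203 rows, and all 10 passed the filter on low counts with 14581 genes in total.

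The libraries came from whole liver of Wistar rats, with 3 libraries in each of 3 groups. Normal rats received olive oil. Rats of the fibrosis group were given carbon tetrachloride (CCl4), a solvent that injures hepatocytes, over 8 weeks and 3 times per week. It was diluted to 50% with olive oil and dosed at 2 mL/kg. Rats of the schisandrin B group received CCl4 for 4 weeks and then daily schisandrin B, a lignan of Schisandra fruit, together with CCl4 for the other 4 weeks. The study used 25 and 50 mg/kg of schisandrin B, and the labels do not say which dose these libraries stand for. The labels do not tie the libraries to separate animals, so the p-values measure the spread between libraries, which may be technical.

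Sinusoidal endothelial cells line the liver's blood spaces without a continuous basement membrane and are perforated by open pores, the fenestrae. They clear waste from the blood through scavenger receptors. In capillarization, described in chronic liver injury, the pores are lost, a basement membrane forms, and proteins of continuous capillaries such as von Willebrand factor and CD34 appear.

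The libraries held 10320299 to 16255167 counts assigned to genes, and 3 counts corresponded to 0.176 to 0.287 CPM (counts scaled to a common library size with TMM factors, which correct library totals for composition). Albumin, encoded by Alb, took 13.9% to 17.1% of the counts in the normal libraries, 4.18% to 7.65% in fibrosis and 13.1% to 14.3% with schisandrin B. The labels describe male animals, yet the Y-linked transcripts Kdm5d and Eif2s3y had 0 counts in each of the 3 libraries labelled normal. Kdm5d stood at 5.91 to 13.3 CPM and Eif2s3y at 9.08 to 13.3 CPM in the other 6 libraries. Each comparison with the libraries labelled normal therefore also compares libraries with and without these transcripts, and treatment cannot be told apart from that difference there. The comparison of schisandrin B with fibrosis does not carry it. In whole liver, fewer endothelial cells and less RNA per endothelial cell cannot be told apart.

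Against the libraries labelled normal, fibrosis libraries had less RNA of the stabilins, of the lectin receptor Clec4g, of Oit3 and of the VEGF receptor Kdr. Of the 10 members, 5 fell and 0 rose (edgeR quasi-likelihood test, adjusted p under 0.05 over all genes tested). Kdr fell 2.20-fold and Stab2 by 1.35 on the log2 scale, while Lyve1, Fcgr2b, Pecam1, Vwf and Cd34 did not pass the test. Over all genes tested, 48.3% were called, 25.4% higher and 22.9% lower, so 5 of 10 called is close to the background share. The median log2 fold change was -0.33 over the members and 0.03 over all genes tested.

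With schisandrin B, Stab1, Stab2 and Kdr rose against fibrosis and no member fell by the same test. Stab1 was 2.13-fold, Stab2 1.87-fold and Kdr 1.44-fold higher. The share called over all genes was 47.3%, with 22.5% higher and 24.8% lower, above the share of 3 in 10 members. The median log2 fold change was 0.33 over the members and -0.03 over all genes tested. Both comparisons use the same fibrosis libraries.

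**Figure D1:**
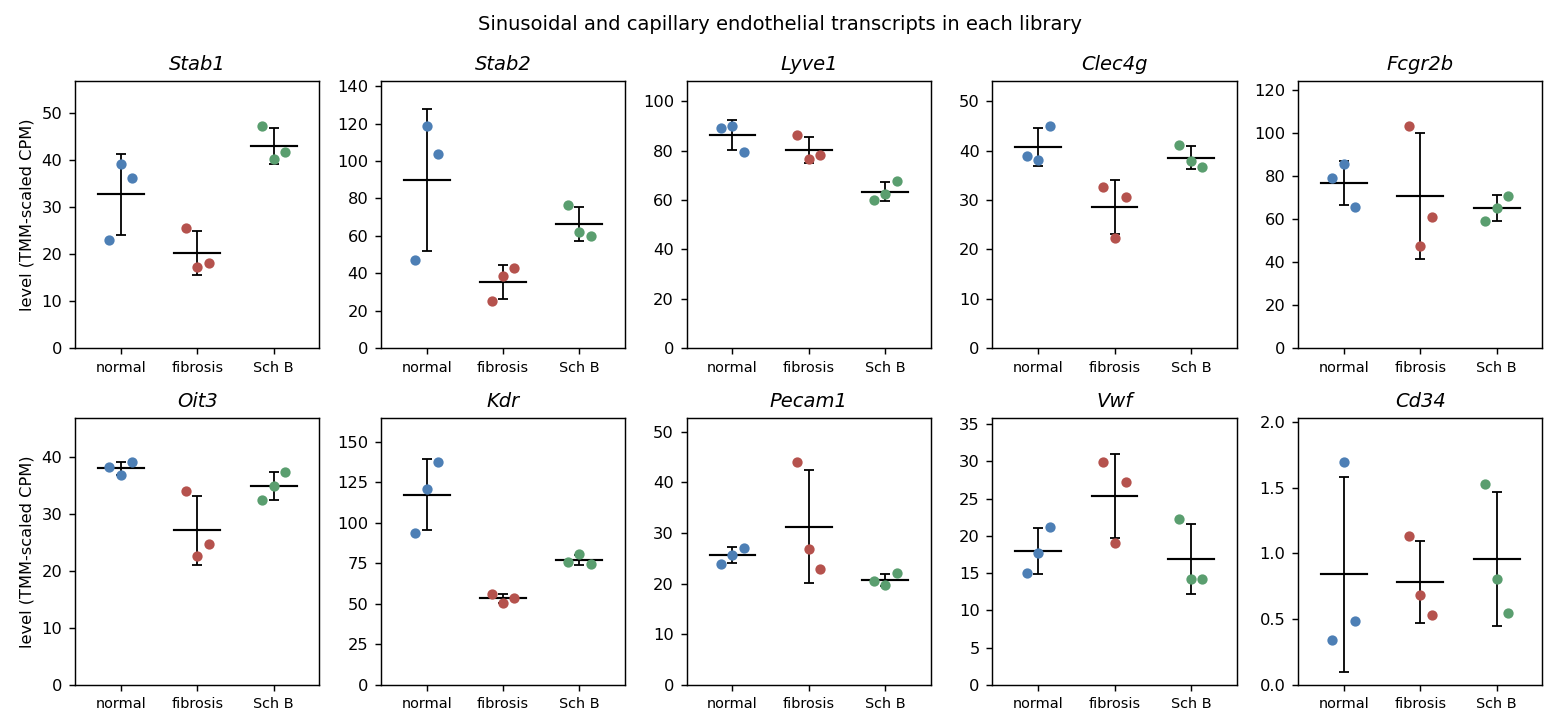
TMM-scaled CPM (vertical axes, each from 0) of the 10 members in the normal, fibrosis and schisandrin B libraries; points are libraries, and bars are means with SD (n = 3). The 3 fibrosis libraries of Kdr lie between 50.7 and 55.9 CPM, below each normal library (93.8 to 137) and each schisandrin B library (74.5 to 80.6).

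Stab1 and Stab2 encode stabilin-1 and stabilin-2, giant scavenger receptors of the sinusoidal cell. Stabilin-2 is its main receptor for taking up hyaluronan. Stab2 stood at 47.2, 119 and 104 CPM in normal replicates 1 to 3, at 25.0, 38.6 and 42.6 in fibrosis, and at 76.5, 62.0 and 60.0 with schisandrin B. Fibrosis lay below both other groups without overlap, and normal replicate 1 was far below the other normal libraries. The log2 fold change was -1.35 ± 0.32 (SE) in fibrosis against normal (edgeR adjusted p = 0.00479), and 0.90 ± 0.31 in schisandrin B against fibrosis (edgeR adjusted p = 0.035).

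Stab1 stood at 22.9, 39.2 and 36.2 CPM in normal libraries, 25.6, 17.2 and 18.03 in fibrosis, and 47.4, 40.2 and 41.7 with schisandrin B. Normal replicate 1 lay inside the fibrosis range, so these groups overlapped, while each schisandrin B library was above each other library. Stab1 fell by 0.70 ± 0.23 on the log2 scale in fibrosis (edgeR adjusted p = 0.025). It rose by 1.09 ± 0.23 with schisandrin B (edgeR adjusted p = 0.00233).

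The fall of Stab1 in fibrosis ended as a call without normal replicate 2 or 3 or fibrosis replicate 2 or 3 (edgeR adjusted p 0.0768 to 0.099). The rise of Stab2 with schisandrin B ended without fibrosis replicate 1 or 2 or any 1 of the schisandrin B replicates (edgeR adjusted p 0.0579 to 0.114). The rise of Stab1 with schisandrin B passed the test in each of 21 alternatives.

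Clec4g encodes LSECtin, a sugar-binding lectin receptor of sinusoidal cells, and Oit3 a secreted protein made in liver. Clec4g stood at 38.9, 38.2 and 45.1 CPM in normal libraries, 32.6, 22.4 and 30.7 in fibrosis, and 41.2, 37.8 and 36.7 with schisandrin B. Oit3 stood at 38.3, 36.8 and 39.1 CPM in normal libraries, 34.0, 22.7 and 24.7 in fibrosis, and 32.4, 34.9 and 37.3 with schisandrin B. Fibrosis lay below normal without overlap for both genes, and fibrosis replicate 2 was the lowest library of each. Their log2 fold changes in fibrosis were -0.51 ± 0.18 for Clec4g (edgeR adjusted p = 0.0316) and -0.49 ± 0.18 for Oit3 (edgeR adjusted p = 0.0388).

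Against fibrosis, schisandrin B left both short of the threshold, with 0.43 ± 0.18 for Clec4g (edgeR adjusted p = 0.0627) and 0.36 ± 0.18 for Oit3 (edgeR adjusted p = 0.114). The Clec4g groups did not overlap there, and those of Oit3 did. In fibrosis against normal, the Clec4g call ended in 8 of 21 alternatives and the Oit3 call in 12. Among them, leaving out normal replicate 1, normal replicate 3 or fibrosis replicate 2 gave adjusted p of 0.0519 to 0.114 for Clec4g. For Oit3, leaving out any 1 of the normal libraries, fibrosis replicate 2 or 3, or schisandrin B replicate 2 or 3 gave 0.0526 to 0.132. Without fibrosis replicate 1, Oit3 rose with schisandrin B by 0.55 on the log2 scale (edgeR adjusted p = 0.00912).

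Lyve1 encodes a hyaluronan receptor shared by sinusoidal and lymphatic endothelium and some macrophages. Its level was 89.4, 90.2 and 79.6 CPM in normal libraries, 86.2, 76.6 and 78.3 in fibrosis, and 59.9, 62.6 and 67.6 with schisandrin B. Normal and fibrosis overlapped, and the schisandrin B libraries were the 3 lowest. The log2 fold change was -0.10 ± 0.15 in fibrosis against normal (edgeR adjusted p = 0.58, 95% interval -0.43 to 0.22), so a fall as large as that fitted for Stab1 lies outside the interval. Between schisandrin B and fibrosis it was -0.34 ± 0.15 (edgeR adjusted p = 0.0763). Across the groups Lyve1 was thus ordered differently from the stabilins.

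Fcgr2b encodes an inhibitory receptor for IgG, by which sinusoidal cells take up immune complexes, and is also made by macrophages and B cells. It stood at 79.2, 85.7 and 65.7 CPM in normal libraries, 104, 47.4 and 61.2 in fibrosis, and 59.3, 65.3 and 71.0 with schisandrin B. Fibrosis held both the highest and the lowest of the 9 libraries, so the groups overlapped in each comparison. The log2 fold change was -0.12 ± 0.25 in fibrosis against normal (edgeR adjusted p = 0.717) and -0.12 ± 0.25 in schisandrin B against fibrosis (edgeR adjusted p = 0.734). Without fibrosis replicate 1, Fcgr2b fell in fibrosis by 0.50 (edgeR adjusted p = 0.036). Reads of Fcgr2b may be shared with the near-identical receptors of its family, since the handling of such reads is not given in the sources used here.

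Markers of the other cells that make Fcgr2b were read in the same libraries. The 13 Kupffer cell and macrophage genes summed to 1617 to 2464 CPM in normal libraries, 1110 to 2332 in fibrosis and 1004 to 1516 with schisandrin B, and fibrosis replicate 1 was the top of its group. The 8 B cell genes summed to 25.8 to 41.4 CPM, 6.21 to 12.04 and 13.2 to 19.9 in the same order, with Pax5 at 0 in the normal libraries and Cd79a at 0 with schisandrin B. Their part in the Fcgr2b values was not tested.

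Kdr encodes VEGF receptor 2, the main signalling receptor for VEGF-A on endothelium. It stood at 93.8, 121 and 137 CPM in normal libraries, 55.9, 50.7 and 53.4 in fibrosis, and 75.7, 80.6 and 74.5 with schisandrin B. The 3 groups did not overlap: fibrosis was lowest, schisandrin B in between and normal highest. The log2 fold change was -1.14 ± 0.17 in fibrosis against normal (edgeR adjusted p = 0.000265), which passed the test in each of 21 alternatives. Kdr was higher by 0.53 ± 0.17 (log2) in schisandrin B than in fibrosis (edgeR adjusted p = 0.024), and that call ended without fibrosis replicate 2 or 3 or schisandrin B replicate 2 or 3 (adjusted p 0.051 to 0.0804).

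Pecam1 encodes CD31, an adhesion protein at the contacts of endothelial cells that is also on platelets and leukocytes. It stood at 23.9, 25.7 and 27.0 CPM in normal libraries, 44.0, 26.8 and 22.96 in fibrosis, and 20.5, 19.8 and 22.1 with schisandrin B. Fibrosis replicate 1 stood alone at the top, and the other fibrosis libraries lay within or near the normal range. Fibrosis against normal gave 0.29 ± 0.22 (edgeR adjusted p = 0.31), and -0.04 without fibrosis replicate 1 (edgeR adjusted p = 0.857). Schisandrin B against fibrosis gave -0.59 ± 0.23 (edgeR adjusted p = 0.0506, 95% interval -1.08 to -0.09), with no overlap between the groups.

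Vwf encodes von Willebrand factor, the clotting protein stored by the endothelium of larger vessels and by platelets. It stood at 14.9, 17.7 and 21.2 CPM in normal libraries, 29.9, 19.1 and 27.2 in fibrosis, and 22.3, 14.1 and 14.2 with schisandrin B. Both comparisons overlapped through a single library, fibrosis replicate 2 or schisandrin B replicate 1. Vwf differed by 0.50 ± 0.24 (log2) in fibrosis against normal (edgeR adjusted p = 0.109, 95% interval -0.03 to 1.03) and -0.59 ± 0.24 in schisandrin B against fibrosis (edgeR adjusted p = 0.0628, 95% interval -1.12 to -0.06). Without fibrosis replicate 2, Vwf rose in fibrosis by 0.67 (edgeR adjusted p = 0.0457).

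The 10 platelet and megakaryocyte genes, markers of the other source of Vwf and Pecam1, summed to 26.5 to 30.6 CPM in normal libraries, 16.3 to 26.8 in fibrosis and 19.4 to 31.1 with schisandrin B. Most of each sum was Itga2b, at 24.9, 28.8 and 27.0 CPM, 24.4, 13.7 and 16.1 CPM, and 17.8, 26.2 and 17.6 CPM. Of the 2 genes tested, Pf4 was higher than normal in fibrosis (log2 1.10 ± 0.41, edgeR adjusted p = 0.0463). It was also higher with schisandrin B (1.42 ± 0.41, edgeR adjusted p = 0.0495). Both calls ended without any 1 of the normal libraries, among others. Gp5, Gp1bb, Gp6 and Tubb1 were at 0 in the normal libraries, Gp5 in fibrosis, and Ppbp, Gp9, Gp1bb and Tubb1 with schisandrin B. Their part in the Vwf and Pecam1 values was not tested.

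Cd34 encodes a sialomucin of continuous capillaries and blood stem cells. It had 4, 25 and 6 counts in normal libraries, 14, 9 and 9 in fibrosis, and 16, 11 and 6 with schisandrin B, or 0.344 to 1.69 CPM. The lowest and the highest library were both normal. The log2 fold change was -0.16 ± 0.64 in fibrosis against normal (edgeR adjusted p = 0.849, 95% interval -1.56 to 1.23), so a difference of about the size fitted for Kdr was not detectable at this depth.

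**Figure D2:**
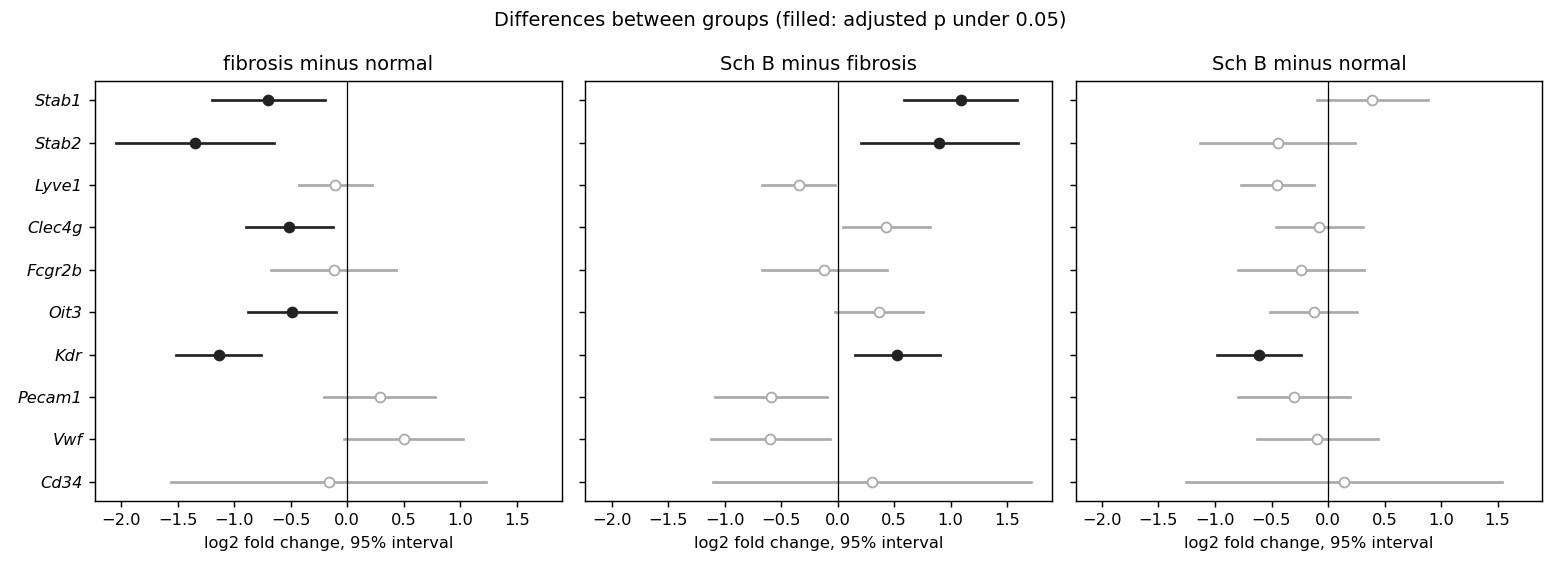
Log2 fold changes of the 10 members (horizontal axis) with 95% intervals from the edgeR fit, for each of the 3 comparisons; filled points passed adjusted p under 0.05. Kdr is filled in all 3 comparisons, at -1.14, 0.53 and -0.61.

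Kdr was the member called in schisandrin B against the libraries labelled normal, at -0.61 ± 0.17 (edgeR adjusted p = 0.0424). The other 9 members did not pass the test there, and 10.5% of all genes tested were called, 5.25% in each direction. Stab1 was 0.39 ± 0.23 (edgeR adjusted p = 0.298) with each schisandrin B library above each normal library, and Stab2 was -0.44 ± 0.31 (edgeR adjusted p = 0.406). Lyve1 was -0.45 ± 0.15 (edgeR adjusted p = 0.0764) and lay below normal without overlap, as did Pecam1 at -0.30 ± 0.23 (edgeR adjusted p = 0.441). The Kdr call ended without normal replicate 2 or 3 or any 1 of the schisandrin B replicates (adjusted p 0.107 to 0.16).

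Counting groups that do not overlap, 4 members lay lower in fibrosis than in normal and 0 higher. Of all genes tested, 55.8% did not overlap there, 29% higher and 26.8% lower. Between schisandrin B and fibrosis, 4 members lay higher and 2 lower, against 56.8% of all genes, 27.8% higher and 29% lower. Between schisandrin B and normal, 1 member lay higher and 3 lower, against 38.7% of all genes, 19.9% higher and 18.8% lower.

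The ratio of 2 genes within a library does not depend on the scaling of libraries, and the pairs given here were chosen after their values were seen. The count ratio of Vwf to Kdr was 0.159, 0.147 and 0.155 in normal libraries, 0.534, 0.376 and 0.510 in fibrosis, and 0.294, 0.175 and 0.190 with schisandrin B. The 3 groups did not overlap in it, and the means were 0.154 ± 0.0063, 0.474 ± 0.085 and 0.220 ± 0.065 (SD, n = 3). Lyve1 to Kdr was 0.953, 0.746 and 0.580 in normal libraries, 1.54, 1.51 and 1.47 in fibrosis, and 0.792, 0.777 and 0.907 with schisandrin B. Here fibrosis stood above both other groups, which overlapped. Pecam1 to Kdr was 0.255, 0.213 and 0.197 in normal libraries, 0.786, 0.528 and 0.430 in fibrosis, and 0.270, 0.245 and 0.297 with schisandrin B. Such separation was common: of 36 pairs among the 9 members other than Cd34, 17 did not overlap between fibrosis and normal, 23 between schisandrin B and fibrosis and 12 between schisandrin B and normal. These ratios show unequal change of the paired genes and give no test.

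**Figure D3:**
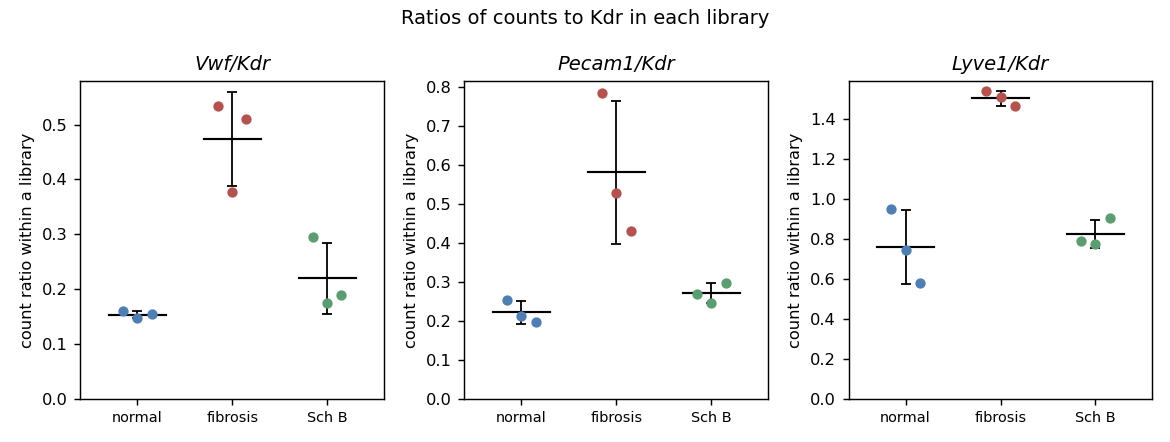
Ratio of the counts of Vwf, Pecam1 and Lyve1 to those of Kdr within each library (vertical axes, no unit, from 0), by group; points are libraries and bars are means with SD (n = 3). The fibrosis libraries lie highest in each panel, from 0.376 to 0.534 for Vwf to Kdr.

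To set the members beside endothelial RNA as a whole, their CPM was divided by the geometric mean of 28 general endothelial genes. That mean was 10.5 ± 0.48 CPM in normal libraries, 9.88 ± 2.30 in fibrosis and 10.4 ± 0.57 with schisandrin B (SD, n = 3). Relative to it, Kdr stood at 11.2 ± 1.99, 5.55 ± 0.97 and 7.45 ± 0.74 in that order. Stab1 stood at 3.11 ± 0.73, 2.05 ± 0.08 and 4.16 ± 0.32, and Stab2 at 8.51 ± 3.34, 3.83 ± 1.62 and 6.39 ± 0.85. Vwf stood at 1.72 ± 0.30, 2.61 ± 0.55 and 1.62 ± 0.43, and Pecam1 at 2.44 ± 0.15, 3.11 ± 0.39 and 2.00 ± 0.06.

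In an edgeR fit scaled to those 28 genes, Kdr (-1.02, adjusted p = 0.00227), Stab2 (-1.16, adjusted p = 0.0207) and Stab1 (-0.61, adjusted p = 0.038) fell in fibrosis. Clec4g and Oit3 were both at -0.41 and no longer passed. With schisandrin B on this scale, Stab1 rose by 1.02 (edgeR adjusted p = 0.00252), and Pecam1 (-0.63, adjusted p = 0.019) and Vwf (-0.68, adjusted p = 0.048) fell. Stab2 at 0.74 and Kdr at 0.43 no longer passed there. This fit called 42.7% of all genes in fibrosis against normal (25.9% higher, 16.8% lower) and 41.6% in schisandrin B against fibrosis (16.7% higher, 24.9% lower).

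With libraries scaled by their totals only, the median gene shifted by 0.43 (log2) in fibrosis against normal and by -0.27 in schisandrin B against fibrosis, and the share of calls that were higher went from 52.7% to 74.7% and from 47.6% to 32.6%. This scaling called 51.9% of all genes in fibrosis against normal (38.8% higher, 13.1% lower) and 47.8% in schisandrin B against fibrosis (15.6% higher, 32.2% lower). On that scaling Kdr still fell in fibrosis (-0.70, edgeR adjusted p = 0.00484), and Vwf (0.93, adjusted p = 0.0101) and Pecam1 (0.69, adjusted p = 0.0118) rose. Stab1 at -0.28, Stab2 at -0.89, and Clec4g and Oit3, both at -0.07, did not pass. With schisandrin B, Stab1 rose (0.84, edgeR adjusted p = 0.00966), and Lyve1 (-0.61, adjusted p = 0.00604), Pecam1 (-0.83, adjusted p = 0.00481) and Vwf (-0.86, adjusted p = 0.0174) fell. As in the TMM fit, Stab2 and Kdr stood lowest and Vwf and Pecam1 highest in fibrosis. A change of scaling shifts all genes by nearly the same amount, so this order was largely fixed in advance and is no separate support.

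Further genes of sinusoidal endothelium were read as a list of 28 tested genes. In fibrosis against normal 3 rose and 9 fell, with a median log2 fold change of -0.38. With schisandrin B 6 rose and 5 fell against fibrosis, with a median of 0.40. Tspan7, a membrane tetraspanin, stood at 90.7, 84.5 and 87.0 CPM in normal libraries, 43.8, 30.05 and 33.9 in fibrosis, and 77.7, 76.2 and 83.2 with schisandrin B. It fell by 1.28 ± 0.17 in fibrosis (edgeR adjusted p = 0.000113) and rose by 1.14 ± 0.17 with schisandrin B (edgeR adjusted p = 0.000275). Nr2f2, a transcription factor of venous endothelium also made by stellate cells, stood at 17.6, 20.4 and 26.2 CPM, 8.34, 10.1 and 10.2 CPM, and 36.3, 34.5 and 27.1 CPM in the same order. Fibrosis lay lowest and schisandrin B highest, without overlap. Cd36, a fatty acid transporter also made by hepatocytes and macrophages, fell by 3.02 ± 0.48 in fibrosis (edgeR adjusted p = 0.000629).

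Some genes of this list went the other way or are chiefly known from other cells. Ctsl, a lysosomal protease made by many cell types, rose by 2.57 ± 0.39 in fibrosis (edgeR adjusted p = 0.00028) and fell by 2.49 ± 0.39 with schisandrin B (edgeR adjusted p = 0.000371). Cd302, a C-type lectin receptor also on macrophages, rose by 1.11 ± 0.17 with schisandrin B (edgeR adjusted p = 0.000276). Picked after their values were seen, the DNase gene Dnase1l3 (-1.17 ± 0.25, edgeR adjusted p = 0.00272) and the VEGF-C receptor gene Flt4 (-0.83 ± 0.22, adjusted p = 0.00952) fell in fibrosis, though the Flt4 call ended with library totals (adjusted p = 0.135). The mannose receptor gene Mrc1 also fell (-0.65 ± 0.22, edgeR adjusted p = 0.0321), and its call ended without normal replicate 2 or 3 or fibrosis replicate 2 or 3. Other genes of this list, picked in the same way, had a higher mean CPM in fibrosis. Wnt9b stood at 1.203, 2.303 and 1.295 CPM in normal libraries and 10.77, 4.768 and 5.696 in fibrosis. Cd209b stood at 4.552, 5.215 and 3.158 CPM, and 6.881, 6.206 and 7.164. Bmp2 stood at 14.43, 20.25 and 23.64 CPM, and 102.6, 58.73 and 21.08. Only the Bmp2 groups overlapped, through fibrosis replicate 3.

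The 12 of 28 called in fibrosis and the 11 of 28 with schisandrin B are shares below those over all genes tested (48.3% and 47.3%). The list's counts also moved with single libraries and with scaling. Without fibrosis replicate 1, 14 genes fell in fibrosis and 12 rose with schisandrin B, and without fibrosis replicate 2, 3 rose with schisandrin B. With library totals, 8 rose and 5 fell in fibrosis and the median turned to 0.04, while 3 rose and 6 fell with schisandrin B.

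The 28 general endothelial genes showed no common direction. In fibrosis against normal 3 rose and 4 fell, with a median of -0.14, and in schisandrin B against fibrosis 5 rose and 3 fell, with a median of 0.06. Both counts are small shares beside the 48.3% and 47.3% called over all genes tested. S1pr1, the receptor for sphingosine-1-phosphate that keeps endothelial contacts tight, stood at 84.9, 70.8 and 80.3 CPM in normal libraries, 22.1, 22.02 and 13.2 in fibrosis, and 75.4, 80.8 and 50.7 with schisandrin B. Fibrosis lay far below both other groups, at -2.04 ± 0.24 against normal (edgeR adjusted p = 5.22e-05), and schisandrin B against fibrosis was 1.86 ± 0.24 (edgeR adjusted p = 0.000112). Esam, an endothelial junction protein, rose by 1.00 ± 0.22 in fibrosis (edgeR adjusted p = 0.00288) and fell by 0.97 ± 0.22 with schisandrin B (edgeR adjusted p = 0.00356). Emcn, a sialomucin of capillaries and veins, rose by 1.33 ± 0.33 with schisandrin B (edgeR adjusted p = 0.0062).

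Leaving out normal replicate 1 left 1 general endothelial gene rising in fibrosis, and leaving out normal replicate 3 left 1 falling. Without fibrosis replicate 3, 5 rose, and without fibrosis replicate 1, 6 fell. With schisandrin B, 2 rose without fibrosis replicate 2 or 3, and 7 rose without fibrosis replicate 1. With library totals, 5 rose and 1 fell in fibrosis, and 2 rose and 5 fell with schisandrin B.

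Of 22 tested genes of continuous, arterial and scar endothelium, 7 rose and 2 fell in fibrosis, with a median of 0.14. Against fibrosis, 2 rose and 5 fell with schisandrin B, with a median of -0.21. Selp, which passed the low-count filter through the fibrosis libraries, is among the 7 that rose and the 5 that fell. The 9 and 7 called of 22 are likewise below the 48.3% and 47.3% over all genes tested. Unc5b, a netrin receptor of arterial and tip cells, rose by 5.15 ± 0.46 in fibrosis (edgeR adjusted p = 1.6e-05) and fell by 3.74 ± 0.43 with schisandrin B (edgeR adjusted p = 7.81e-05). It stood at 2.83, 7.72 and 4.45 CPM in normal libraries, 239, 141 and 158 in fibrosis, and 21.0, 10.1 and 9.22 with schisandrin B. The fibrosis libraries stood far above all others. Which cells of whole liver made this Unc5b RNA was not tested.

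Icam1, a leukocyte adhesion molecule made by endothelium and hepatocytes, stood at 35.0, 36.4 and 39.8 CPM in normal libraries, 116, 67.1 and 69.2 in fibrosis, and 25.3, 20.7 and 18.2 with schisandrin B. Its log2 fold changes were 1.18 ± 0.23 (edgeR adjusted p = 0.00127) and -1.97 ± 0.23 (edgeR adjusted p = 5.97e-05). Selp, the leukocyte-capturing P-selectin of endothelium and platelets, stood at 0.172, 0.0677 and 0.081 CPM in normal libraries, 4.37, 1.97 and 1.47 in fibrosis, and 0.0956, 0.365 and 0.274 with schisandrin B. These are 2, 1 and 1 counts in normal libraries, 54, 26 and 25 in fibrosis, and 1, 5 and 3 with schisandrin B. Each normal library lies under the floor of 3 counts, and Selp passed the low-count filter through the fibrosis libraries, so its call there (edgeR adjusted p = 0.000265 against normal) supports nothing further. Dll4, a Notch ligand of arterial endothelium, went the other way and fell by 1.31 ± 0.23 in fibrosis (edgeR adjusted p = 0.000678). Without normal replicate 1 or fibrosis replicate 1, 4 genes of this list rose in fibrosis, and without normal or fibrosis replicate 2, 1 fell. Against fibrosis, 1 rose with schisandrin B without fibrosis replicate 2 or schisandrin B replicate 2 or 3, and with library totals 8 fell.

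**Figure D4:**
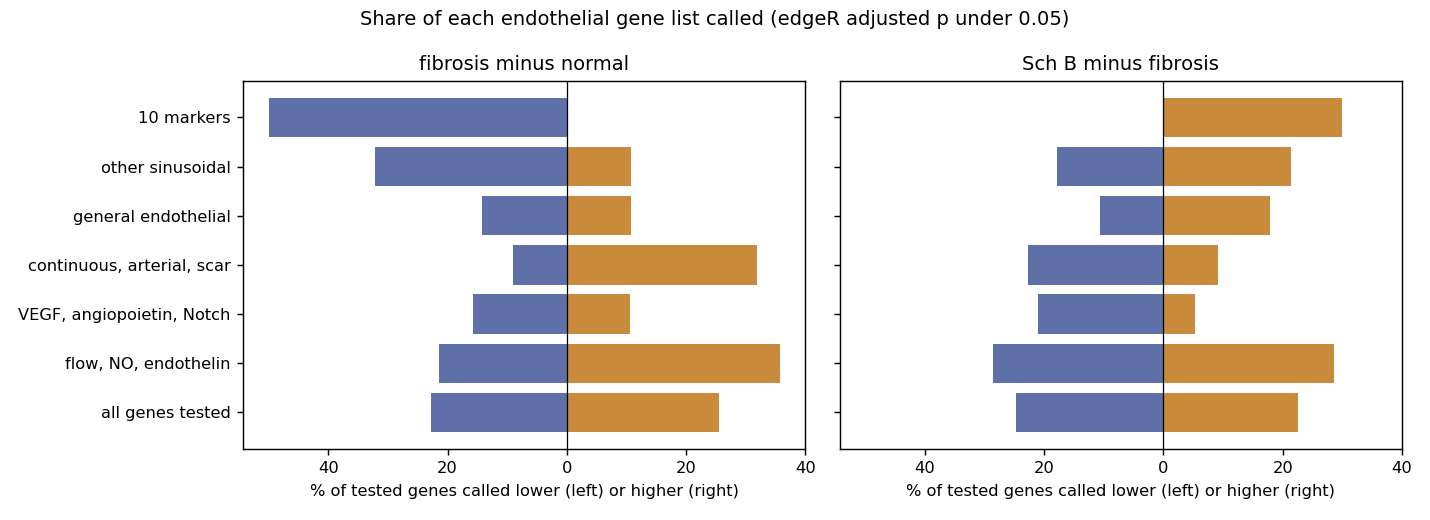
Percentage of the tested genes of each list called higher (to the right) and lower (to the left) at edgeR adjusted p under 0.05. The panels show fibrosis against normal and schisandrin B against fibrosis. Of the 28 further sinusoidal genes 3 are higher and 9 lower in fibrosis. Of the 22 continuous, arterial and scar genes 7 are higher and 2 lower, where 25.4% and 22.9% of all genes tested are. The 7 include Selp, which passed the low-count filter through the fibrosis libraries.

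Ligands and partners of Kdr were read among 19 tested VEGF, angiopoietin and Notch genes, of which 2 rose and 3 fell in fibrosis, and 1 rose and 4 fell with schisandrin B, against 48.3% and 47.3% called over all genes tested. Vegfc, a ligand of VEGF receptors 2 and 3, rose by 1.13 ± 0.28 in fibrosis (edgeR adjusted p = 0.00592) and fell by 1.17 ± 0.28 with schisandrin B (edgeR adjusted p = 0.00508). Flt1, the VEGF receptor that competes with Kdr for VEGF-A, stood at 17.3, 20.5 and 20.2 CPM in normal libraries, 43.5, 22.5 and 22.7 in fibrosis, and 9.94, 11.3 and 9.59 with schisandrin B. Flt1 fell by 1.52 ± 0.26 with schisandrin B (edgeR adjusted p = 0.000617), where Kdr rose. Vegfa, chosen after its values were seen, spread from 73.1 to 271 CPM within fibrosis and did not pass the test there (0.09, edgeR adjusted p = 0.872). Angptl4, a lipase inhibitor made by hepatocytes, fell by 1.32 ± 0.21 in fibrosis (edgeR adjusted p = 0.000413). In fibrosis, 4 genes of this list rose without fibrosis replicate 3, and 1 fell without replicate 2 of any 1 group, fibrosis replicate 3 or schisandrin B replicate 3. With library totals, 6 rose and 1 fell, and without fibrosis replicate 1, 2 rose with schisandrin B.

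Among 14 tested genes of flow, nitric oxide and endothelin signalling, 5 rose and 3 fell in fibrosis, and 4 rose and 4 fell with schisandrin B, against the same 48.3% and 47.3%. Cxcl12, a chemokine of sinusoidal and stromal cells, stood at 684, 459 and 574 CPM in normal libraries, 53.8, 69.2 and 48.7 in fibrosis, and 209, 399 and 281 with schisandrin B. The 3 groups did not overlap, and the log2 fold changes were -3.32 ± 0.29 (edgeR adjusted p = 7.77e-06) and 2.37 ± 0.27 (edgeR adjusted p = 5.4e-05). Ednrb, the endothelin receptor found on endothelium and stellate cells, rose by 1.78 ± 0.28 in fibrosis (edgeR adjusted p = 0.000315) and fell by 1.12 ± 0.27 with schisandrin B (edgeR adjusted p = 0.0052). Piezo1, a stretch-gated channel, rose by 1.82 ± 0.30 in fibrosis (edgeR adjusted p = 0.00047) and fell by 1.88 ± 0.30 with schisandrin B (edgeR adjusted p = 0.000427). Gucy1a3, a subunit of the nitric oxide receptor, fell by 1.00 ± 0.19 in fibrosis (edgeR adjusted p = 0.00128).

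Markers of other liver cells moved in the same libraries. Hepatocyte genes summed to 241423 to 274546 CPM in normal libraries, 74554 to 120759 in fibrosis and 203947 to 226851 with schisandrin B, with 6 of 9 falling in fibrosis and 5 rising with schisandrin B. Of 10 stellate cell and fibroblast genes 5 rose and 1 fell in fibrosis, with 2 falling without normal or fibrosis replicate 1. With schisandrin B 3 of them rose and 4 fell. Beside these counts, 48.3% of all genes tested were called in fibrosis against normal (25.4% higher, 22.9% lower). In schisandrin B against fibrosis 47.3% were called (22.5% higher, 24.8% lower). The T and NK cell genes summed to 104 to 147 CPM in normal libraries, 53.7 to 97.6 in fibrosis and 67.4 to 97.96 with schisandrin B. Most of each sum was Cd4, at 93.5, 129 and 87.4 CPM, 88.6, 47.8 and 68.3 CPM, and 84.3, 56.9 and 61.1 CPM in that order. These sums therefore mainly follow that 1 gene. Of the 6 tested genes of this list, 5 fell in fibrosis and 1 rose with schisandrin B. The part of these changes in the members' values was not tested.

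Normal replicate 1 deviated from the normal mean by -0.82 (log2) for Stab2, -0.75 for Cd34, -0.47 for Stab1, -0.30 for Kdr and -0.25 for Vwf, and by -0.10 to 0.05 for the other 5 members. Among 8245 genes with a mouse coding transcript as a stand-in for length, its median deviation was 0.17 for those under 1 kb and -0.14 for those over 6 kb. Normal replicate 2 deviated the opposite way, by -0.12 and 0.15, with Stab2 at 0.51. Vwf, Stab2, Stab1 and Kdr have the longest mouse transcripts of the 10 members, at 8834, 8228, 7999 and 5924 bases. Cd34, with 4 counts in normal replicate 1, has one of the shorter ones, at 2554 bases. The part of length in the members' values was not tested. With normal and fibrosis replicate 1 both omitted, chosen after seeing the data, 5 members fell in fibrosis and 5 rose with schisandrin B. That fit called 43.4% of all genes in fibrosis against normal (22.7% higher, 20.7% lower) and 46.3% in schisandrin B against fibrosis (21.9% higher, 24.4% lower). Stab1 was then -1.10 in fibrosis (edgeR adjusted p = 0.00044) and Stab2 -1.46 (edgeR adjusted p = 0.000153).

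The genes whose pattern over the 9 libraries was nearest to each member were sought among 9860 genes of at least 5 CPM, by the root mean square difference of their centred log2 CPM. Nearest to Kdr were Itih1 at 0.11 and Tcn2 and Ano10 at 0.13, where the median over all these genes was 0.67. Nearest to Stab1 was Tns1 at 0.14, to Stab2 Pdk2 at 0.23, to Clec4g Mtmr3 at 0.10 and to Oit3 Efhd2 at 0.088. Nearest to Pecam1 was Rab7a at 0.065, to Vwf Lrch3 at 0.15 and to Lyve1 Wdfy1 at 0.10. Nearest to Fcgr2b were Gla and the endothelial gene Clec14a, both at 0.14. Nearest to Cd34 was Atxn7, at 0.32. The members themselves were left out of this search, and measured apart the closest pair of members was Clec4g and Oit3, at 0.14.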

How the data were processed

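The authors deposited a table of whole-number read counts per gene symbol for 9 rat liver libraries (total RNA, Ion Proton, per the labels' protocols), used here as deposited. The submitters' processing notes name GRCm38, a mouse build, although the labels describe rats; how reads were aligned, counted, assigned by strand or shared between genes is not given in the sources used here. No column lacked a sample (0 columns). Libraries were matched to groups by their titles. Members and lists were chosen with earlier results of these data known, and overlap in part.

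Counts were scaled with TMM factors and tested with edgeR 4.0.16 (R 4.3.3): filterByExpr, robust quasi-likelihood fit, 1 mean per group over all 9 libraries, Benjamini-Hochberg adjustment over 14581 genes, called under 0.05. The text names the members, and per other list and comparison up to 4 called genes with the lowest adjusted p. It also names the nearest of each member's 3 nearest genes (more for Kdr and Fcgr2b). Dnase1l3, Flt4, Mrc1, Wnt9b, Cd209b, Bmp2, Cd4, Itga2b, Vegfa and the Kdr ratios were picked after their values were seen. Not every gene the rule allows is printed. CPM is not comparable between genes, since rat gene lengths were not used. Alternatives were other scalings and filters, DESeq2 1.42.0, limma 3.58.1 (voom), a stricter threshold of 0.01, the compared groups alone, the 20 most counted genes left out and each library left out; 1 more, which omits both replicate 1 libraries, was chosen after seeing the data. The scripts were tested on simulated data. Figures used matplotlib 3.10.9.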

Additional observations from a re-analysis of the deposited data

How the results depend on the processing

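No paired analysis was possible because the replicate numbers were given in accession order and pair no samples. In fibrosis against normal, 5 members were called, all lower; 3 were called with library totals (2 higher, 1 lower), 3 (all lower) with scaling to general endothelial genes, with no filter or with only the compared groups, and 2 (all lower) at adjusted p under 0.01. Leaving out 1 library gave 2 to 6 called, 0 to 1 higher and 2 to 6 lower. In schisandrin B against fibrosis, 3 were called, all higher; 5 (all higher) with upper-quartile factors or with both replicate 1 libraries omitted, and 1 at 0.01. With library totals 1 was higher and 3 lower, with endothelial scaling 1 and 2, with no filter 1 and 1, and 1 was lower without the 20 most counted genes. Leaving out 1 library gave 1 to 4 called, 1 to 4 higher and 0 to 2 lower. In schisandrin B against normal, 1 was called, lower; 0 with library totals, endothelial scaling, no filter or at 0.01, and 2 with only the compared groups, with DESeq2's Wald test or with both replicate 1 libraries omitted. Leaving out 1 library gave 0 to 2. The causes were not tested.

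These log2 fold changes turned direction, none of them called in the main test. With library totals, fibrosis against normal was 0.32 for Lyve1, 0.28 for Fcgr2b and 0.22 for Cd34, and schisandrin B against normal was 0.086 for Clec4g, 0.031 for Oit3 and 0.076 for Vwf. Endothelial scaling gave 0.0089 for Lyve1 and limma's voom 0.043 for Cd34 in fibrosis against normal, and upper-quartile factors 0.022 for Fcgr2b in schisandrin B against fibrosis. Omitting both replicate 1 libraries gave -0.086 for Pecam1 in fibrosis against normal, 0.26 for Fcgr2b in schisandrin B against fibrosis and -0.22 for Cd34 in schisandrin B against normal. Leaving out 1 library at a time, fibrosis against normal ranged from -0.50 to 0.099 for Fcgr2b, from -0.038 to 0.47 for Pecam1 and from -0.52 to 0.87 for Cd34. Schisandrin B against fibrosis ranged from -0.34 to 0.26 for Fcgr2b and from -0.12 to 0.65 for Cd34. Schisandrin B against normal ranged from -0.34 to 0.038 for Vwf and from -0.33 to 1.17 for Cd34. Cd34 had no value under the filter of at least 5 CPM. Over all genes, 1531 were called in schisandrin B against normal, 702 to 2814 without 1 library, 2951 with only the compared groups and 547 at 0.01. Cd34 had 4 to 25 counts per library.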

Other observations

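Receptors and partners of hyaluronan and scavenger uptake, the pathway of the stabilins and Lyve1, were read over 10 tested genes. In fibrosis against normal 2 rose and 3 fell, and in schisandrin B against fibrosis 3 rose and 1 fell. Over all genes tested, 48.3% and 47.3% were called in these comparisons, so the list is close to the background share. Without fibrosis replicate 1, 5 fell in fibrosis and 5 rose with schisandrin B, and without any 1 of the other libraries 2 fell with schisandrin B. Cd44, a hyaluronan receptor of leukocytes, ductular cells and fibroblasts, stood at 6.53, 3.39 and 3.32 CPM in normal libraries, 68.4, 58.6 and 66.4 in fibrosis, and 4.20, 1.46 and 2.37 with schisandrin B. Fibrosis stood far above both other groups, at a log2 fold change of 3.87 ± 0.35 against normal (edgeR adjusted p = 1.13e-05), and schisandrin B against fibrosis was -4.61 ± 0.37 (edgeR adjusted p = 8.57e-06). Lrp1, an endocytic receptor of hepatocytes and stromal cells, fell by 1.96 ± 0.23 in fibrosis (edgeR adjusted p = 4.68e-05) and rose by 1.74 ± 0.23 with schisandrin B (edgeR adjusted p = 0.000114). Scarb1, a receptor for high-density lipoprotein, fell by 1.15 ± 0.24 in fibrosis (edgeR adjusted p = 0.00195) and rose by 1.12 ± 0.24 with schisandrin B (edgeR adjusted p = 0.00235).

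Some endothelial and vessel genes with schisandrin B differed from the libraries labelled normal as well, in both directions. Over all genes tested, 10.5% were called there, 5.25% in each direction. Called lower were Cd36 (-2.08), Sox7 (-1.76), Plvap (-0.99), Cxcl12 (-0.95), Flt1 (-0.91), Icam1 (-0.79) and Nrp2 (-0.78, edgeR adjusted p 0.0206 to 0.0469). Cd302 (0.60) and Myct1 (1.01) were called higher (edgeR adjusted p 0.0407 and 0.041), as were the 3 genes that follow. Egfl7, a secreted endothelial protein, stood at 7.39, 7.45 and 9.15 CPM in normal libraries, 16.2, 11.8 and 10.8 in fibrosis, and 23.2, 18.7 and 18.9 with schisandrin B. Against normal it was higher with schisandrin B (log2 fold change 1.34 ± 0.21, edgeR adjusted p = 0.00276) and in fibrosis (0.69 ± 0.21, edgeR adjusted p = 0.0185). Ednra, the endothelin receptor of smooth muscle and stellate cells, stood at 2.32, 3.32 and 2.51 CPM in normal libraries, 3.72, 7.87 and 12.4 in fibrosis, and 29.6, 21.7 and 27.7 with schisandrin B. It was highest with schisandrin B without overlap, at 3.26 ± 0.38 against normal (edgeR adjusted p = 0.000416) and 1.70 ± 0.35 against fibrosis (edgeR adjusted p = 0.00207). Ccl21, a chemokine of lymphatic endothelium, stood at 3.52, 3.59 and 6.48 CPM in normal libraries, 25.8, 15.3 and 26.1 in fibrosis, and 14.6, 10.4 and 14.7 with schisandrin B. It rose against normal both in fibrosis (2.31 ± 0.31, edgeR adjusted p = 0.000107) and with schisandrin B (1.54 ± 0.30, edgeR adjusted p = 0.00879).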
